A study of Mus musculus with 13 samples.

Results

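The proteasome genes were followed through erythroid cells of Adar1-deficient and control mouse fetal livers. The members are the genes whose symbol begins with Psma, Psmb, Psmc, Psmd, Psme or Psmf followed by a digit and that have a probe set listed for that gene alone. The rule found 46 genes, with 52 probe sets, among the 19938 genes named on the array. Of the 46, 5 belong to the immunoproteasome and its activator (Psmb8, Psmb9, Psmb10, Psme1 and Psme2), and 41 make up the rest. Psmc3ip and Psme3ip1 match by symbol, but they are named as proteins that interact with Psmc3 and Psme3 and are not proteasome subunits; they were kept in the 41 as the rule asks. Where a gene had several probe sets, the brightest on average stands for it, a choice that used no difference between groups.

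The proteasome degrades proteins that carry ubiquitin chains. Its 20S core is a barrel of alpha-subunit rings (Psma genes) around beta-subunit rings (Psmb genes), and the 19S cap, with its ATPases (Psmc genes) and non-ATPase subunits (Psmd genes), unfolds substrates and feeds them in. Interferons, interferon gamma above all, induce the immunoproteasome subunits Psmb8, Psmb9 and Psmb10, which take the places of the constitutive catalytic subunits Psmb5, Psmb6 and Psmb7, and the PA28 activator genes Psme1 and Psme2; the altered core favours peptides that fit MHC class I. Maturing erythroid cells clear much of their protein content through ubiquitin and the proteasome before they become red cells.

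Each of the 13 arrays measured 1 sorted population from 1 of 6 embryos at E14.5, on the C57JB6 background as the labels spell it. Every embryo, control or knockout, carried the EpoR-Cre knock-in (ki/+), which drives Cre in the erythroid lineage. Knockout embryos 1, 10 and 11 were Adar1 fl/-, and control embryos 2, 13 and 15 were Adar1 fl/+. The R26 EYFP reporter was ki/+ in all 3 controls and in knockout embryo 1, and +/+ in knockout embryos 10 and 11. All 6 embryos gave Ter119- CD71+ cells. Ter119+ CD71+ cells, a later stage, were taken from the 3 controls and from knockouts 10 and 11, and the Ter119+ CD71med cells from controls 13 and 15 alone. Embryo numbers were read from the sample titles. The sources used here do not give how far the floxed allele had been deleted in the sorted cells. In sorted pools, fewer cells of a type and less RNA per cell cannot be told apart.

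Values are log2 signals, and differences are log2 differences with their standard errors (SE). Array medians over the genes ran from 5.83 to 6.01, and the upper quartile was 7.47 in the Ter119+ CD71+ array of knockout embryo 10, against 7.77 in embryo 11 and 7.55 to 7.69 in the controls of that population. The erythroid marker list averaged 9.99 to 10.20 in the knockout and 10.31 to 10.63 in the control Ter119- CD71+ arrays. It averaged 10.77 to 11.37 in the Ter119+ arrays. Adar itself did not differ detectably between knockout and control (-0.08, SE 0.23, adjusted p = 0.951 in Ter119- CD71+ cells and 0.05, SE 0.25, adjusted p = 0.973 in Ter119+ CD71+ cells), and since the position of its probes against the floxed part of the gene is unknown here, it is no check of the labels. An interferon-stimulated gene chosen after its values were seen, Sp100, was higher in knockout cells by 3.49 (SE 0.15, adjusted p = 5.93e-08) and by 4.77 (SE 0.17, adjusted p = 4.12e-09). The highest differences of any gene were 4.45 and 5.04, so Sp100 lies near the top of all genes. Its differences mark the upper end of a scale for those of the proteasome genes and not a typical interferon-stimulated gene. The number of arrays limits the precision of every value.

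The promoters of the 5 immunoproteasome and PA28 genes are shown because the first question is how these interferon-inducible genes stood beside that response. Each sequence is the 120 bases before the annotated transcription start, from RefSeq on GRCm38.p6, written 5′ to 3′ on the gene's strand in lower case, with a match to the GAS core, the element bound by STAT dimers, in capitals. Psme2 has 2 annotated starts, and the sequence before the upstream one is shown.
Psmb8 (chr17:34198075-34198194, plus strand): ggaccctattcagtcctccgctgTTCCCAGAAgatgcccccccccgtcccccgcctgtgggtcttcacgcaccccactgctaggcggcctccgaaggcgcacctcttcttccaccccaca
Psmb9 (chr17:34187331-34187450, minus strand): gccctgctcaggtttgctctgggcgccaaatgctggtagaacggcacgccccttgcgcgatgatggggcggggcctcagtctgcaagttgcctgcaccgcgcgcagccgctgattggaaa
Psmb10 (chr8:105938393-105938512, minus strand): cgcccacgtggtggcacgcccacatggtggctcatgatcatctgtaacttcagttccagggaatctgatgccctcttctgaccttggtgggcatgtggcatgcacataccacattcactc
Psme1 (chr14:55578374-55578493, plus strand): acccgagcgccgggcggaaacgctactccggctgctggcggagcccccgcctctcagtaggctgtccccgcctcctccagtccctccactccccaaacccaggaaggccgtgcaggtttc
Psme2 (chr14:55591102-55591221, minus strand): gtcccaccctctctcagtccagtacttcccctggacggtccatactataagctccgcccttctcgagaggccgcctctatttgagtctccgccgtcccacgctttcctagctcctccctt

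A search of the 250 bases before the start, on both strands, covered 39 of the 46 genes. The GAS core (TTCNNNGAA) was found before Psmb8, from 97 to 89 bases upstream, and before no other matched member, against 8.13% of 27025 genes with a promoter in the same table. The interferon-stimulated response element core (GAAANNGAAA) was found in 0 of the 5 genes and in 3 other members, Psmb3, Psmd4 and Psmd9, against 3.46% of all. The core read by the stress-responsive factors Nfe2l1 and Nfe2l2 (TGANNNNGC) was found in 16 of the 39, 2 of them among the 5, against 38.7% of all. A match describes letters in this window and not a bound site. Psmb9, Tap1, Psmb8 and Tap2 are consecutive genes on chromosome 17, beside MHC class II genes. Psme1 and Psme2 flank Emc9 on chromosome 14, with Irf9 close by.

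In Ter119- CD71+ cells, knockout was compared with control, which asks what loss of ADAR1 changes in the less mature population. None of the 5 immunoproteasome and PA28 genes was called by limma at an adjusted p under 0.05, and 0 of all 46 members was, where 2.21% of all genes were (1.35% higher, 0.858% lower). At an unadjusted p under 0.05, 5 of the 46 passed, 2 of them (Psmb9 and Psmb10) among the 5, in opposite directions; the share was 10.9% of the members and 14.2% of all genes. The differences of the 5 ran from -0.46 to 0.34, with a median of 0.20, beside 3.49 for Sp100 in the same arrays. Over all genes the median was 0.00.

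Psmb8, which replaces the chymotrypsin-like subunit Psmb5, measured 4.85, 4.92 and 4.76 in control embryos 2, 13 and 15 and 4.87, 4.83 and 4.94 in knockout embryos 1, 10 and 11. Its arrays overlapped, the difference was 0.04 (SE 0.09), and the 95% interval ran from -0.16 to 0.23. It was the only member among the 33.3% of genes with the lowest mean signal, and detection calls were not used here. Psmb9, which replaces Psmb6, measured 6.74, 7.19 and 6.96 in controls and 7.15, 7.49 and 7.27 in knockouts. Knockout embryos 10 and 11 lay above all controls and embryo 1 did not, with a difference of 0.34 (SE 0.14, 95% interval 0.04 to 0.64, adjusted p = 0.273). Psmb10, which replaces Psmb7, measured 7.81, 8.10 and 7.96 in controls and 7.34, 7.46 and 7.70 in knockouts. All 3 knockout arrays were below all controls, as in 11.6% of genes, by -0.46 on average (SE 0.13, 95% interval -0.73 to -0.18, adjusted p = 0.0919).

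The PA28 genes encode the alpha and beta subunits of a ring that opens the core without ATP. Psme1 measured 10.92, 10.98 and 11.15 in controls and 11.28, 11.25 and 11.13 in knockouts, a difference of 0.20 (SE 0.14, 95% interval -0.09 to 0.50, adjusted p = 0.610). Psme2 measured 8.25, 8.06 and 8.16 in controls and 8.39, 8.44 and 8.51 in knockouts. Its groups did not overlap, as in 9.92% of genes in that direction, and the difference was 0.29 (SE 0.14, 95% interval -0.01 to 0.59, adjusted p = 0.370). The intervals here are for each gene alone and are not adjusted.

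**Figure D1:**
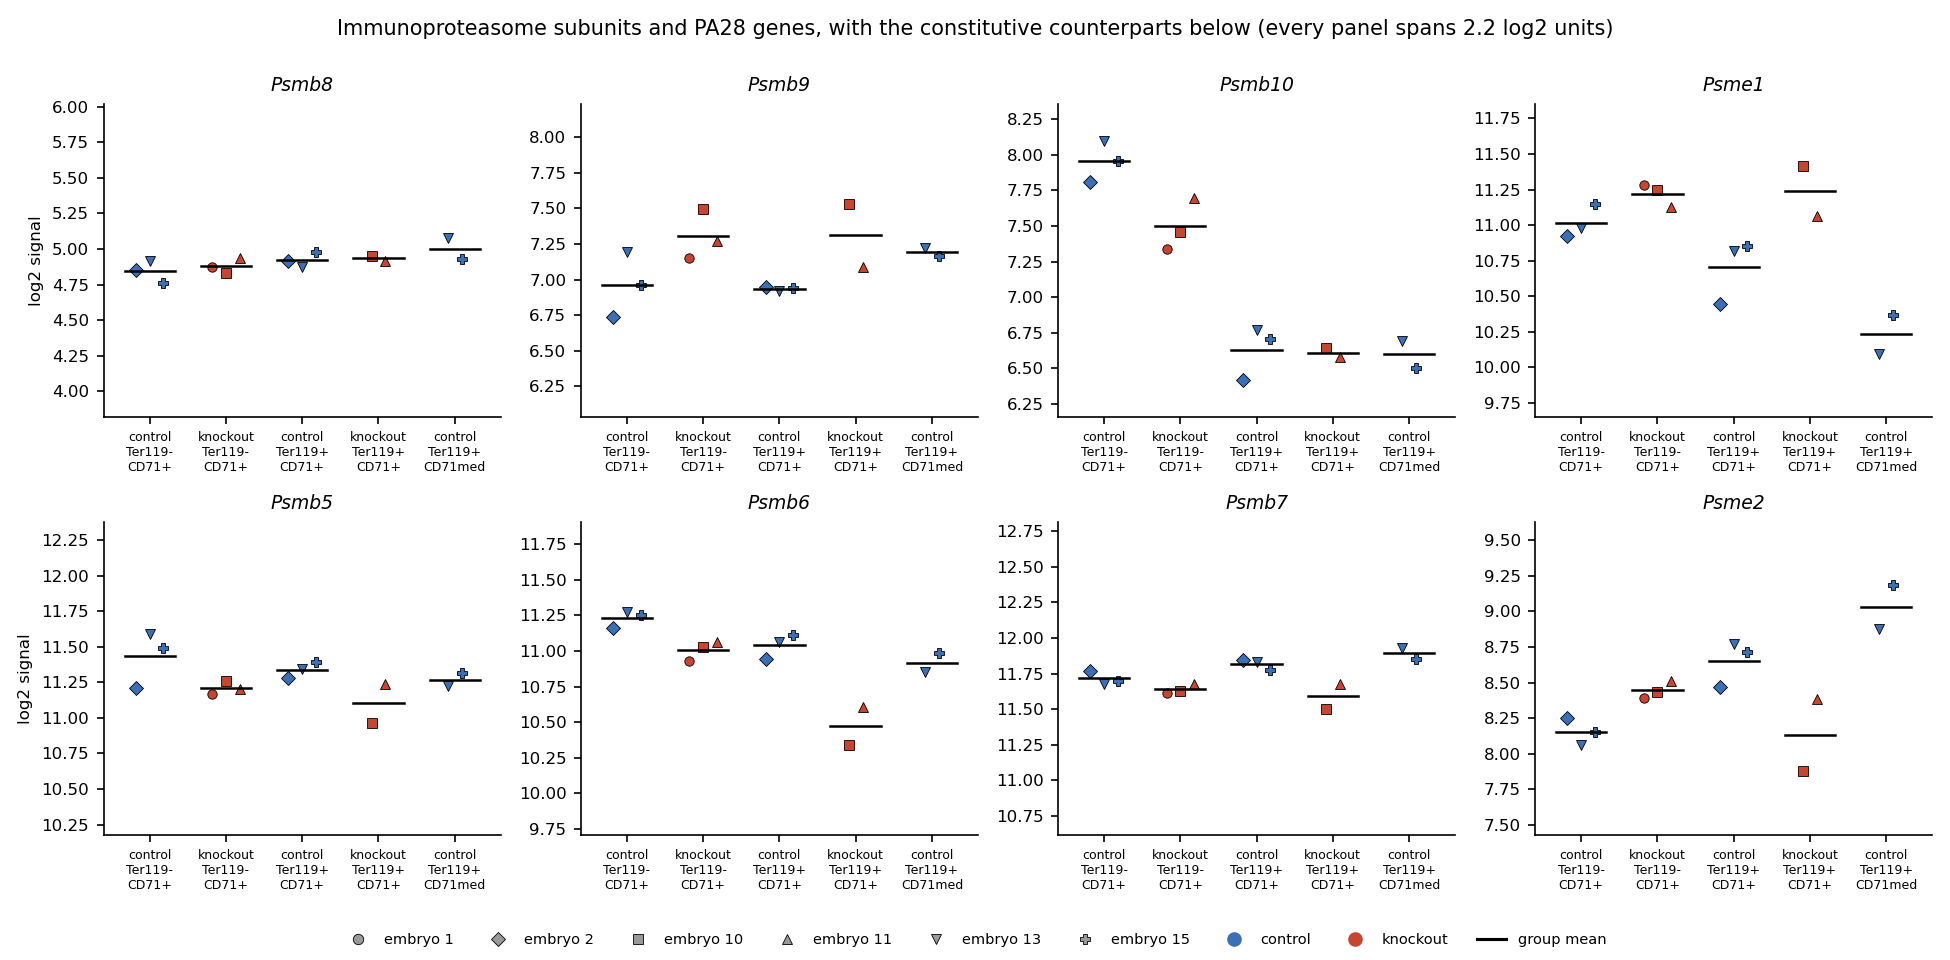
Log2 signal of the immunoproteasome catalytic genes, PA28 genes and constitutive counterparts in each array, by group (3 arrays, or 2 in knockout Ter119+ CD71+ and control Ter119+ CD71med), with bars at the group means. Each panel spans the same number of log2 units: Psmb8 stays between 4.76 and 5.08, Psmb10 falls from 7.95 to 6.63 in control cells between Ter119- CD71+ and Ter119+ CD71+, and the control means of Psme1 (11.02, 10.71, 10.23) and Psme2 (8.16, 8.65, 9.03) run in opposite order.

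Markers of some other blood cells moved with this comparison, in which 1.35% of all genes were called higher. None of 13 macrophage, 8 lymphoid and 4 megakaryocyte markers was called, with medians of 0.07, 0.09 and -0.29. Of 18 neutrophil and myeloid markers 4 were higher in knockout Ter119- CD71+ cells, among them Mpo by 2.44 (SE 0.40), and of 4 pan-leukocyte genes 3 were, among them Ptprc by 1.69 (SE 0.25). The myeloid list averaged 5.81 to 7.08 in the knockout arrays and 5.17 to 5.55 in the controls, highest in knockout embryo 10, which also had the highest Psmb9 of the Ter119- CD71+ arrays. With the myeloid mean fitted as a covariate, the Psmb9 difference was 0.03 (adjusted p = 0.990), and the median of the 5 genes was 0.07. Every knockout array lay above every control array in that mean, so the fit cannot separate it from genotype. The erythroid list lay lower in every knockout than in every control array, with a median difference of -0.47. Of its 7 measured genes 0 were called. No measured value of the myeloid list is 0 on the log2 scale. The part of these cell types in the differences was not tested.

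In Ter119+ CD71+ cells, the more mature population, the same genotypes were compared in 2 knockout and 3 control arrays. None of the 5 immunoproteasome and PA28 genes was called by limma, while 3 of them (Psme1, Psme2 and Psmb9) passed an unadjusted p under 0.05, as did 16 of the 46 members (34.8%) and 12.9% of all genes. Of all 46 members 1 was called, Psmb6, which was lower, where 2.56% of all genes were called either way, 1.48% higher and 1.08% lower. The differences of the 5 ran from -0.52 to 0.53, with a median of 0.01, beside 4.77 for Sp100.

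Psmb8 measured 4.92, 4.88 and 4.98 in control embryos 2, 13 and 15 and 4.95 and 4.92 in knockout embryos 10 and 11, a difference of 0.01 (SE 0.10, 95% interval -0.21 to 0.23). Psmb9 measured 6.95, 6.92 and 6.94 in controls and 7.53 and 7.09 in knockouts. Both knockout arrays were above all controls, as in 11.4% of genes, with a difference of 0.38 (SE 0.16, 95% interval 0.04 to 0.71, adjusted p = 0.318), and without embryo 10 it was 0.15. Psmb10 measured 6.42, 6.77 and 6.71 in controls and 6.64 and 6.58 in knockouts, a difference of -0.02 (SE 0.14, 95% interval -0.33 to 0.29). The myeloid list averaged 5.56 and 5.32 in the knockout arrays of embryos 10 and 11 and 5.31 to 5.47 in these controls, and 0 of its 18 genes was called. The hepatocyte list averaged 6.24 and 6.67 in the knockout arrays and 6.93 to 7.20 in the controls, with 1 of 7 measured genes called lower, and the erythroid list 10.77 and 10.93 against 11.06 to 11.37, with 0 of 7 called. Their part in these differences was not tested.

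The PA28 genes lay on opposite sides of the controls without overlap, as in 11.4% of genes in the higher and 10.7% in the lower direction. Psme1 measured 10.45, 10.82 and 10.85 in controls and 11.41 and 11.06 in knockouts, higher in both, with a difference of 0.53 (SE 0.15, 95% interval 0.20 to 0.86, adjusted p = 0.1001). Psme2 measured 8.47, 8.77 and 8.71 in controls and 7.88 and 8.38 in knockouts, lower in both, with a difference of -0.52 (SE 0.15, 95% interval -0.85 to -0.19, adjusted p = 0.111). Embryo 10 lay farther from the controls in both: without it the differences were 0.35 and -0.27, and neither was called. Without embryo 11 they were 0.70 and -0.77 and both were called, in a fit where the lone knockout array is assumed to vary like the other groups. A probe set listed for both Psme2b and Psme2, left out because it has 2 symbols, differed by -0.70 in these cells and by -0.12 in Ter119- CD71+ cells, and neither was called. The knockout effect on Psme2 was 0.81 lower in Ter119+ CD71+ than in Ter119- CD71+ cells (-0.81, SE 0.21, adjusted p = 0.355 in limma). Over all members the difference of the knockout effects gave 0 calls, where 0.01% of all genes were called, and 4 members (8.7%) at an unadjusted p under 0.05, beside 5.45% of all genes.

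Psmb6, the constitutive caspase-like subunit, measured 10.94, 11.07 and 11.11 in control Ter119+ CD71+ cells and 10.34 and 10.61 in the knockout cells of embryos 10 and 11. Both knockout arrays were below all controls, as in 10.7% of genes, and Psmb6 fell by 0.56 on the log2 scale (SE 0.12, adjusted p = 0.0181), which is 1.48-fold lower. In Ter119- CD71+ cells it measured 11.16, 11.28 and 11.25 in controls and 10.93, 11.03 and 11.06 in knockouts, a difference of -0.22 (SE 0.10, adjusted p = 0.350). The call in Ter119+ CD71+ cells was lost without knockout embryo 10 (-0.43, adjusted p = 0.194), without control embryo 15 (-0.53, adjusted p = 0.0779), with array weights, with the EYFP genotype as a covariate and with only these groups in the fit. Over all alternatives its value ran from -0.70 to -0.43 and its adjusted p from 0.00767 to 0.511. In Ter119+ CD71+ cells both knockout embryos were +/+ and all controls ki/+ for EYFP, so it cannot be told apart from the Adar1 genotype. The other constitutive catalytic genes were not called: Psmb5 differed by -0.24 (SE 0.13) and Psmb7 by -0.23 (SE 0.10).

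**Figure D2:**
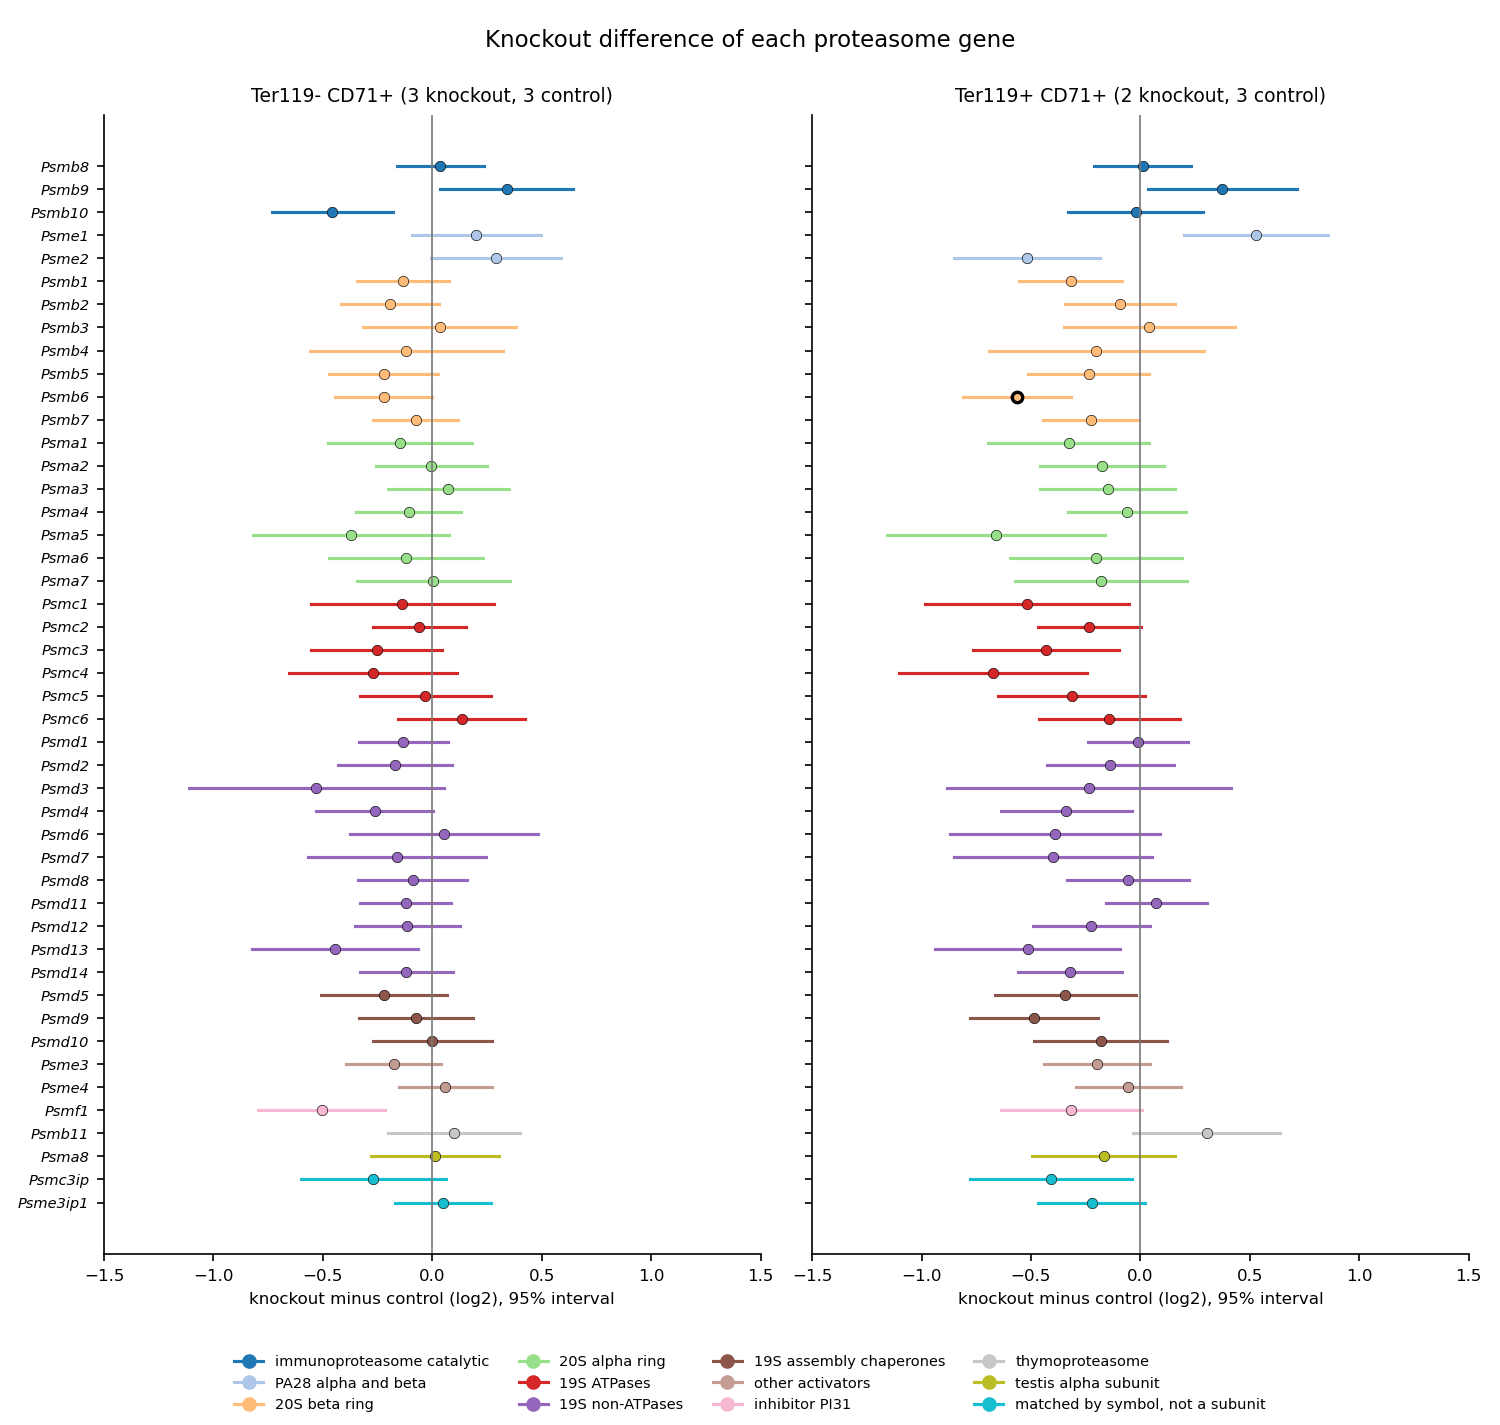
Knockout minus control log2 difference of each of the 46 members, with its unadjusted 95% interval, in Ter119- CD71+ cells (left) and Ter119+ CD71+ cells (right), coloured by role. The thick outline marks the single call, Psmb6 in Ter119+ CD71+ cells; most of the other members lie left of 0 there, and the 5 immunoproteasome and PA28 genes at the top lie on both sides.

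Beyond the 5, most members lay below the controls. In Ter119- CD71+ cells 31 of the 41 differences were negative, 9 were positive and Psmd10 was 0.00, with a median of -0.12, beside a median of 0.00 over all genes, of which 50.4% were positive. The median was -0.04 with the myeloid covariate, which this comparison cannot separate from genotype. In Ter119+ CD71+ cells 38 of the 41 were negative with a median of -0.23, beside 0.02 over all genes, of which 55.5% were positive. These 38 included all 7 alpha-ring genes (median -0.18), all 6 ATPases of the cap (median -0.37) and 10 of 11 non-ATPases (median -0.23). Among the 41, Psmb11 and Psma8 lay at percentiles 51.4 and 54.7 of mean signal over all genes. The others lay at percentile 80.9 or above. Genes of like signal were not compared, so all genes are not a matched reference.

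The ATPase gene Psmc4 had the lowest value there, -0.67 (SE 0.20, adjusted p = 0.110), from 9.39, 9.58 and 9.49 in controls and 8.34 and 9.29 in knockouts. The alpha-ring gene Psma5 was next, at -0.66 (SE 0.23, adjusted p = 0.201), from 10.28, 10.33 and 10.26 in controls and 9.07 and 10.20 in knockouts. In both, embryo 10 was far below embryo 11. Both genes were chosen after their values were seen.

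That split between embryos held over the members. Against the control mean, the Ter119+ CD71+ array of knockout embryo 10 had a median of -0.40 over the 41 genes, with 40 below the mean, beside 39.4% of all genes. Embryo 11 had a median of -0.07, with 25 of the 41 below the mean, near the 57.4% of all genes in that array. Over all genes the medians of these arrays were 0.07 and -0.03. Without embryo 10 no member was called, beside 0.813% of all genes. Without embryo 11, 19 were (18 lower, 1 higher), beside 7.75% of all genes. Each of these fits has 1 knockout array, which is assumed to vary like the other groups. In Ter119- CD71+ cells embryos 1, 10 and 11 had medians of -0.17, -0.17 and -0.05. The array of embryo 10 in Ter119+ CD71+ cells is also the one with the lower upper quartile, and the part of that in the result was not tested.

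**Figure D3:**
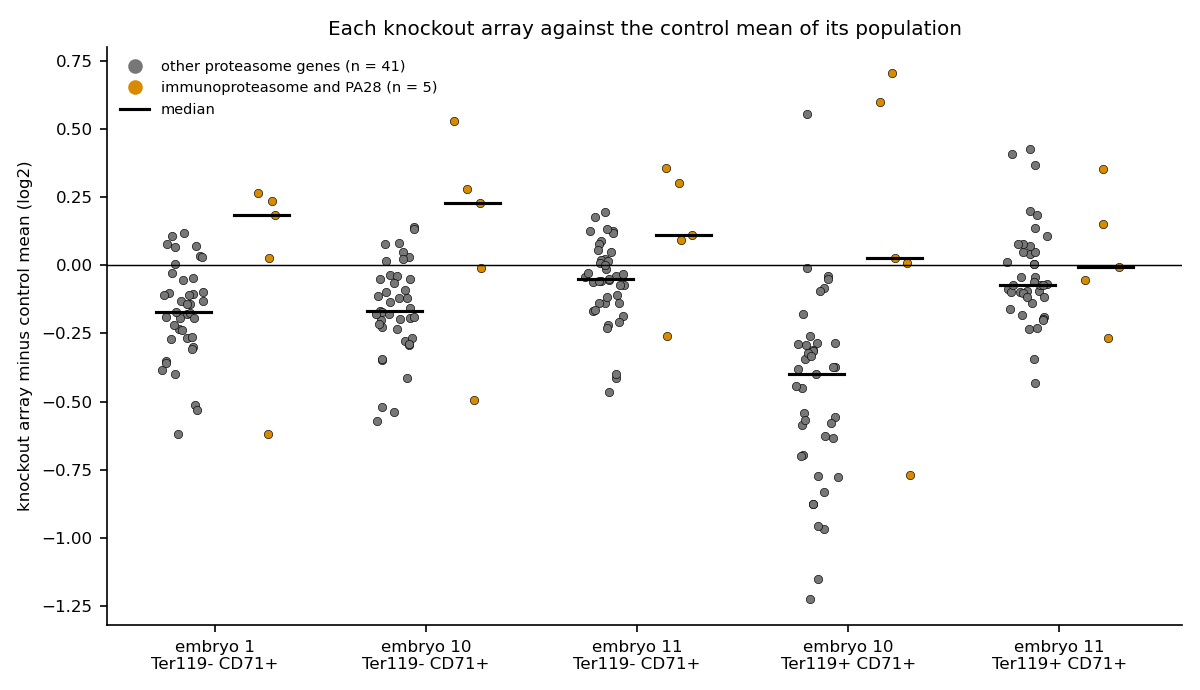
Each point is 1 member's log2 difference between 1 knockout array and the mean of the control arrays of the same population, with bars at the medians; grey points are the 41 other proteasome genes and orange points the 5 immunoproteasome and PA28 genes. The Ter119+ CD71+ array of embryo 10 has a median of -0.40 over the grey points, and that of embryo 11 a median of -0.07.

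The regulators of these genes and their neighbours in peptide supply were described from fixed lists. Of 12 genes for interferon control of the immunoproteasome 11 were measured, and 1 rose in each comparison. Over all genes, 1.35% were called higher in Ter119- CD71+ and 1.48% in Ter119+ CD71+ cells. Ifnar2, a chain of the type I interferon receptor, rose by 0.58 (SE 0.10, adjusted p = 0.0102) in Ter119- CD71+ cells, and Irf7, which amplifies type I interferon, by 1.12 (SE 0.27, adjusted p = 0.0432) in Ter119+ CD71+ cells. Irf1, the interferon-gamma-responsive activator of the immunoproteasome genes, differed by 0.05 (SE 0.10) and 0.04 (SE 0.11); it was named after its values were seen.

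Of 9 genes of class I peptide supply 8 were measured, with 0 calls in Ter119- CD71+ and 1 in Ter119+ CD71+ cells. B2m, the light chain of MHC class I, rose by 0.65 (SE 0.15, adjusted p = 0.0305) there, from 10.70, 11.11 and 11.10 in controls to 11.68 and 11.57. Tap1, the peptide transporter gene between Psmb9 and Psmb8, measured 5.82, 5.70 and 5.89 in control and 6.20, 6.54 and 6.24 in knockout Ter119- CD71+ cells. Its groups did not overlap, as in 9.92% of genes in that direction, and its difference of 0.52 (SE 0.13, adjusted p = 0.0504) missed the threshold. Tap1 and Nfe2l2 were also named after their values were seen. Of the factors behind subunit transcription Nfe2l1, Nfe2l2 and Ngly1 were measured, and 0 of 3 was called in either comparison. Nfe2l2 differed by -0.53 (SE 0.14, adjusted p = 0.0791) and -0.38 (SE 0.16, adjusted p = 0.330).

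Maturation was followed in control cells from Ter119- CD71+ to Ter119+ CD71+, where 8 of the 46 members were called (3 higher, 5 lower) and 19% of all genes were (7.27% higher, 11.7% lower). Of the 5 immunoproteasome and PA28 genes, Psmb10 fell and Psme2 rose. The activators Psme3 and Psme4 rose, and Psma8 and the core genes Psma4, Psma6 and Psmb3 fell. The median over the 41 others was 0.03, and -0.04 after another quantile normalization, so its sign is not determined. After median centring the 6 calls were 3 higher and 3 lower. The count of calls was 5 without control embryo 2 in Ter119+ CD71+ cells, and 4 and 5 without control embryo 15 in Ter119- CD71+ and Ter119+ CD71+ cells. Over all genes, leaving out each array gave 2884 to 3626 calls, against 3789 in the main fit. In the same step 5 of 7 hepatocyte and 3 of 4 megakaryocyte markers were called higher, and their part in it was not tested.

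Psmb10 showed the largest change of any member. Its control arrays measured 7.81, 8.10 and 7.96 before and 6.42, 6.77 and 6.71 after the step, and it fell by 1.32 (SE 0.13, adjusted p = 1.00e-05), which is 2.50-fold. In knockout cells it went from 7.34, 7.46 and 7.70 to 6.64 and 6.58, and fell by 0.89 (SE 0.14, adjusted p = 0.00139). The steps differed by 0.43 (SE 0.19, adjusted p = 0.900). It stayed at 6.69 and 6.50 in control Ter119+ CD71med cells. The falls were called under every alternative run. The constitutive counterpart Psmb7 differed by 0.10 (SE 0.09) in the control step.

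Psma8, an alpha subunit best known from the testis, measured 6.67, 6.53 and 6.78 in control Ter119- CD71+ cells and 5.53, 5.76 and 6.06 in Ter119+ CD71+ cells. It fell by 0.88 (SE 0.14, adjusted p = 0.000360) with no overlap, as in 17.3% of all genes in that direction. In knockout cells it fell by 1.06 (SE 0.15, adjusted p = 0.000643). Both calls held under every alternative run. Whether its probes also detect the related Psma7 was not tested; Psma7 differed by -0.32 in the control step and was not called.

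Both other activators rose. Psme3, the nuclear PA28 gamma, measured 11.04, 11.07 and 11.13 in control Ter119- CD71+ cells, 11.63, 11.58 and 11.63 in Ter119+ CD71+ cells and averaged 12.01 ± 0.02 (SD, n = 2) in Ter119+ CD71med cells. It rose by 0.53 (SE 0.10, adjusted p = 0.00152) and then by 0.39 (SE 0.11, adjusted p = 0.0335). Psme4, the large nuclear activator PA200, measured 10.69, 10.50 and 10.68, then 11.13, 11.08 and 11.20, then 11.66 and 11.41. It rose by 0.51 (SE 0.10, adjusted p = 0.00188) and by 0.40 (SE 0.11, adjusted p = 0.0306). In neither gene did neighbouring stages overlap, as in 17.2% of all genes in the higher direction for the first step and 25% for the second. The first steps were called under every alternative run, and each of the second was lost in 9 of 15, among them the fit with embryo as a fixed block (adjusted p = 0.156 for Psme3 and 0.167 for Psme4). In knockout cells Psme3 rose by 0.51 (SE 0.11, adjusted p = 0.00908) and Psme4 by 0.40 (SE 0.11, adjusted p = 0.0345), calls that the embryo block ended (0.0722 and 0.135). These 2 calls were lost in 5 and 11 of 16 alternatives, that of Psme4 on leaving out any knockout array.

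The order of the stage means in controls was opposite for Psme1 and Psme2. Psme2 averaged 8.16, 8.65 and 9.03 over the 3 stages, and the first step was called (0.49, SE 0.14, adjusted p = 0.0214) and the second was not (0.38, SE 0.15, adjusted p = 0.128). The first call was lost on leaving out control embryo 13 or 15 in either population. Psme1 averaged 11.02, 10.71 and 10.23, with differences of -0.31 (SE 0.14, adjusted p = 0.154) and -0.48 (SE 0.15, adjusted p = 0.0564). With embryo as a fixed block the second was called (-0.61, adjusted p = 0.0124). In knockout cells neither differed detectably between the populations: Psme1 by 0.02 (SE 0.15) and Psme2 by -0.32 (SE 0.15, adjusted p = 0.259). Without embryo 11 in Ter119+ CD71+ cells the Psme2 value was -0.57 and was called (adjusted p = 0.0303), and without embryo 10 it was -0.06. The control step and the knockout comparisons share control arrays, so these values are not independent of each other.

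Within the core, 3 more genes fell in the first control step. Psma4 went from 11.38, 11.29 and 11.42 to 10.74, 11.13 and 11.04 (-0.39, SE 0.11, adjusted p = 0.0232). Psma6 went from 11.41, 11.15 and 11.22 to 10.51, 10.99 and 10.80 (-0.49, SE 0.16, adjusted p = 0.0499). Psmb3 went from 10.34, 10.12 and 10.21 to 9.64, 9.92 and 9.62 (-0.49, SE 0.16, adjusted p = 0.0485). No stage overlapped the other in any of them, as in 17.3% of all genes in that direction. The calls were lost in 5, 8 and 8 of 16 alternatives, those of Psma4 and Psma6 also with embryo as a fixed block (adjusted p = 0.0812 and 0.0854). The alpha-ring genes had a median of -0.32 and the beta-ring genes of -0.19, with 2 of 7 and 1 of 7 called. In the cap, 0 of 6 ATPases and 0 of 11 non-ATPases were called, with medians of 0.09 and 0.03. All 6 ATPase values were positive and small, the highest 0.20. Whether core and cap differ was not tested.

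**Figure D4:**
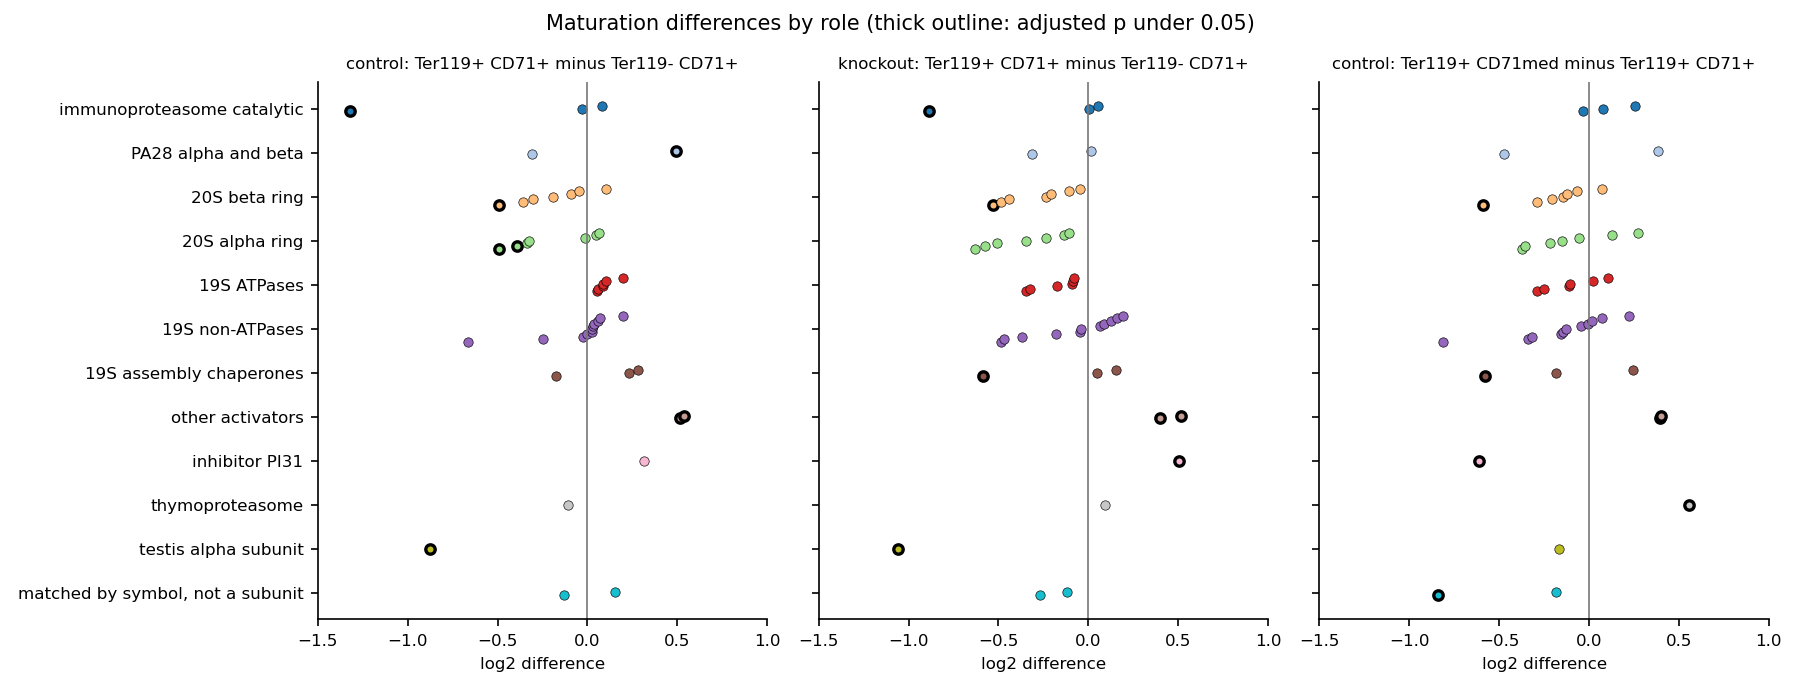
Log2 differences of the 46 members by role for the control step from Ter119- CD71+ to Ter119+ CD71+ (left), the same step in knockout cells (middle) and the control step from Ter119+ CD71+ to Ter119+ CD71med (right); thick outlines mark calls. Psmb10, at -1.32 and -0.89, and Psma8, at -0.88 and -1.06, lie farthest left in both steps to Ter119+ CD71+, and the activators Psme3 and Psme4 lie right of 0 in all panels.

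From Ter119+ CD71+ to Ter119+ CD71med in controls 7 members were called (3 higher, 4 lower), where 13.3% of all genes were (4.11% higher, 9.21% lower). Higher were Psme3, Psme4 and Psmb11. Psmb11, the catalytic subunit of the thymus, measured 5.86, 5.50 and 5.96 and then 6.35 and 6.31. It rose by 0.56 (SE 0.16, adjusted p = 0.0313). The call was lost in 7 of 15 alternatives, among them median centring, array weights and the myeloid covariate. Its mean signal lay at percentile 51.4 of all genes, and detection calls were not used. Psmb2, a core gene, went from 10.72, 10.87 and 10.79 to 10.25 and 10.16 and fell by 0.59 (SE 0.12, adjusted p = 0.00502). Psmd9, an assembly chaperone of the cap, went from 8.33, 8.43 and 8.46 to 7.93 and 7.72 and fell by 0.58 (SE 0.14, adjusted p = 0.0130). The inhibitor gene Psmf1 fell by 0.61 (SE 0.15, adjusted p = 0.0167), and Psmc3ip, a meiotic recombination factor and no subunit, fell by 0.84 (SE 0.17, adjusted p = 0.00602). In all 7 the stages did not overlap, as in 25% of all genes in the higher and 19% in the lower direction. Most of the 7 calls were lost without control embryo 15 in the CD71med group, which leaves 1 array there. Without control embryo 13 or 15 in Ter119+ CD71+ cells there were 4 calls. The share of all genes called in these fits is not given, so the losses are not read as particular to the members. The split of the calls depended on scaling: 4 higher and 2 lower after another quantile normalization, 0 higher and 5 lower after median centring. The hepatocyte marker list averaged 6.29 to 6.51 in control Ter119- CD71+, 6.93 to 7.20 in Ter119+ CD71+ and 7.66 to 7.80 in Ter119+ CD71med arrays, and 4 of its 7 measured genes were called higher in this step, as were 2 of 13 macrophage markers. Their part in it was not tested.

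Psmf1, which encodes the proteasome inhibitor PI31, did not move in 1 direction. Control cells measured 8.67, 9.24 and 8.96 in Ter119- CD71+, 9.29, 9.13 and 9.39 in Ter119+ CD71+ and 8.76 and 8.57 in Ter119+ CD71med cells. Knockout cells measured 8.43, 8.44 and 8.49 and then 9.04 and 8.87 for embryos 11 and 10, below all controls of the same population in each. Of all genes, 11.6% lay so in Ter119- CD71+ and 10.7% in Ter119+ CD71+ cells. The knockout differences were -0.51 (SE 0.13, adjusted p = 0.0756) and -0.31 (SE 0.15, adjusted p = 0.411). The first was called once control embryo 2 was left out, the only member to be called in that comparison on leaving out an array.

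In the knockout step to Ter119+ CD71+ 7 members were called (3 higher, 4 lower), where 10.7% of all genes were (4.5% higher, 6.24% lower). Psme3, Psme4 and Psmf1 rose, the last by 0.50 (SE 0.15, adjusted p = 0.0482). The Psmf1 call was lost in 11 of 16 alternatives, among them leaving out any knockout array. Psmb10, Psma8, Psmb6 and Psmd9 fell, with -0.53 for Psmb6 (SE 0.12, adjusted p = 0.00847) and -0.58 for Psmd9 (SE 0.14, adjusted p = 0.0130). With embryo as a fixed replicate block 2 of the 7 calls were left, Psmb10 and Psma8, and Psmb6 was at -0.57 (adjusted p = 0.0512), Psmd9 at -0.54 (0.0752) and Psmf1 at 0.49 (0.0836). In this step 4 of 18 myeloid and 3 of 4 pan-leukocyte markers were called lower, and with the myeloid covariate the calls were Psmb10 and Psma8. The part of these cells in the step was not tested. Without knockout embryo 10 in Ter119+ CD71+ cells 4 members were called, beside 5.8% of all genes, and without embryo 11, 18, all lower, beside 16.8% of all genes. After median centring 1 of 5 calls was higher.

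Genes that serve the proteasome were taken from fixed lists. The assembly chaperones of the core (Psmg1 to Psmg4 and Pomp, 5 of 6 listed genes measured) build it from its subunits. In the first control step 4 of 5 fell, where 11.7% of all genes were called lower. The differences were -1.87 for Psmg1 (SE 0.33, adjusted p = 0.000877), -0.77 for Psmg3 (SE 0.12, adjusted p = 0.000484), -0.74 for Psmg4 (SE 0.12, adjusted p = 0.000370) and -0.58 for Psmg2 (SE 0.17, adjusted p = 0.0319). All 4 also fell in the knockout step, where 6.24% of all genes were called lower, with -2.02 for Psmg1 (SE 0.36, adjusted p = 0.00276). Psmg1 measured 9.01, 8.53 and 8.54 in control Ter119- CD71+, 6.13, 7.38 and 6.96 in Ter119+ CD71+ and 5.76 and 5.57 in Ter119+ CD71med cells, with a wide spread in the middle stage. Its knockout arrays measured 8.58, 8.79 and 8.88, then 6.02 in embryo 10 and 7.44 in embryo 11. In the second control step Psmg2 (-0.65) and Pomp (-0.43), which helps the catalytic subunits to mature, fell, where 9.21% of all genes were called lower. None of the 5 was called in either knockout comparison.

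**Figure D5:**
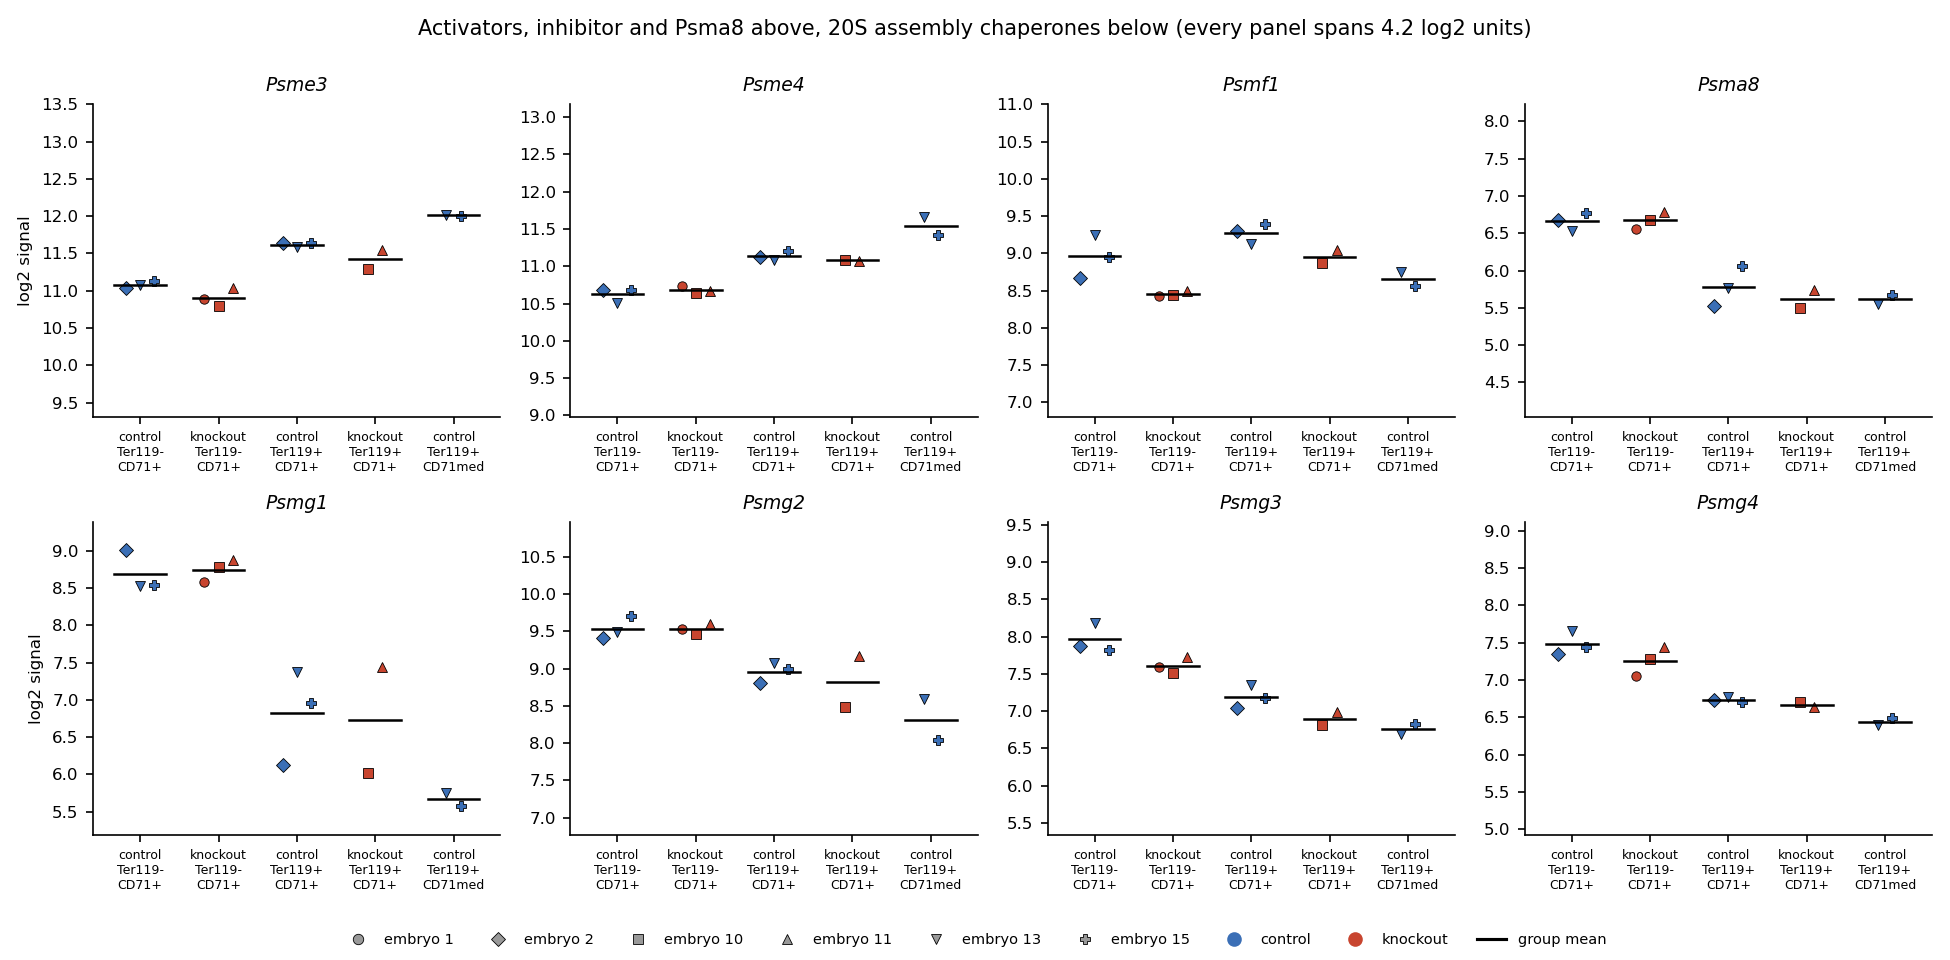
Log2 signal in each array, by group, of the activators Psme3 and Psme4, the inhibitor Psmf1 and Psma8 (above) and the core assembly chaperones Psmg1 to Psmg4 (below), with bars at the group means. Each panel spans the same number of log2 units: Psmg1 has means of 8.69, 6.82 and 5.66 over the control stages, and Psme3 has means of 11.08, 11.62 and 12.01.

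The remaining lists held 1 to 4 calls in a maturation step, or none. Of all genes, 19% were called in the first control step, 13.3% in the second and 10.7% in the knockout step. Of 6 measured genes bound to the 26S particle, the deubiquitinase gene Usp14 rose by 0.46 (SE 0.14, adjusted p = 0.0301) in the first control step and Ecpas fell by 0.74 (SE 0.13, adjusted p = 0.00236) in the second. Of 9 measured ubiquitin and shuttle genes 3 were called in the first control step: Faf1 rose by 0.35, and the shuttle genes Rad23b (-0.56) and Ubqln4 (-0.67) fell. Ngly1, whose enzyme activates Nfe2l1, rose by 0.55 (SE 0.18, adjusted p = 0.0487) there. Erap1, which trims peptides for class I, fell in the first control step (-0.99), the second (-0.66) and the knockout step (-0.66). Among the interferon receptors, Ifngr1 fell in the first control step, with -1.54 (SE 0.24, adjusted p = 0.000408), and in the knockout step with -2.17 (SE 0.27, adjusted p = 0.000230), while Ifnar1 and Ifnar2 rose in all 3 steps.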

How the data were processed

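RNA of each sorted population was measured on 1 single-colour array. The deposited values are log2 signals; the submitters' processing notes name RMA, and mm9 without a role, and the sources used here give no software version. All 13 value columns were used. The platform annotation named the genes: 21789 of 35556 probe sets had 1 symbol and 1621 had several, which were left out. For genes with several probe sets the one with the highest mean was kept, leaving 19938 genes.

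All genes and arrays entered 1 fit of 5 group means in limma 3.58.1 (R 4.3.3) (8 residual and 5.56 prior degrees of freedom). P-values were two-sided, adjusted by Benjamini-Hochberg over all genes and called under 0.05. The fit was tested on simulated data with shifts of at least 1 log2 unit in the knockout Ter119- CD71+ group. Most differences given here are smaller, and the test does not cover them or the smaller groups. Per the labels each sample came from 1 mouse, and the titles number the embryos, which pairs populations within an embryo and never knockout with control. After removal of the group means, r between an embryo's own arrays ran from -0.23 to 0.35 (9 pairs, 4 over 0.1). Between arrays of different embryos it ran from -0.43 to 0.43 (58 pairs, 18 over 0.1). These values do not decide whether arrays are paired by embryo. The main fit has no block, and the blocked value stands beside each call of a proteasome gene that it changes; genes of other lists were not fitted with a block or other alternatives. The alternatives were other normalizations, a filter on low values, the mean of all probe sets, another variance prior, array weights, only the groups compared, EYFP genotype or myeloid mean as a covariate, embryo blocks and leaving out each array.

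Named genes were the immunoproteasome, PA28, constitutive catalytic and special members, every member called in a knockout comparison, up to 6 called members in each direction of a maturation step, and up to 4 called genes of each other list. Members, lists and this rule were chosen with earlier results of these data known. Promoters came from RefSeq tables, and figures from Python 3.11.15 with matplotlib 3.10.9.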

Additional observations from a re-analysis of the deposited data

Results flagged for a closer look

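Psme2, which encodes PA28 beta, stood out because the knockout arrays lay above all controls in Ter119- CD71+ cells (0.29, SE 0.14, a separation seen in 9.92% of all genes) and below all controls in Ter119+ CD71+ cells (-0.52, SE 0.15, in 10.7%). The difference of these effects was -0.81 (SE 0.21, adjusted p = 0.355 over all genes in limma). It kept its sign in all 21 alternatives run, from -1.06 to -0.56, and in none of them was it called; the value nearest to 0 came without knockout embryo 10 in Ter119+ CD71+ cells. A probe set listed for both Psme2 and its copy Psme2b did not change sign: it differed by -0.12 in Ter119- CD71+ and by -0.70 in Ter119+ CD71+ cells.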

How the results depend on the processing

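With array weights the counts of called members were 8 instead of 0 in the Ter119- CD71+ knockout comparison (3 of them immunoproteasome genes, Psmb9 and Psme2 higher and Psmb10 lower), 0 instead of 1 in Ter119+ CD71+ cells, 14 instead of 8 in the first control step, 4 instead of 7 in the second and 3 instead of 7 in the knockout step. This paragraph does not give the share of all genes called under each alternative, so its counts are not read as particular to the members. With the EYFP genotype as a covariate, or only the groups compared, the Ter119+ CD71+ knockout comparison gave 0 calls. In that comparison both knockout embryos were +/+ and all controls ki/+ for EYFP, so it cannot be told apart from the Adar1 genotype. With only the groups compared the knockout step gave 4. The myeloid covariate left 2 in the knockout step. With embryo as a random replicate block every count was unchanged (consensus correlation 0.00385); as a fixed replicate block the control steps gave 6 and 7 calls and the knockout step 2, and it changed no call of a named proteasome gene beyond those given with the results. Leaving out each array gave 0 to 1 call in the Ter119- CD71+ knockout comparison (immunoproteasome genes 0 to 0), 0 to 19 in Ter119+ CD71+ cells (0 to 2), 0 to 0 for the difference of the effects, 4 to 7 and 1 to 7 in the control steps and 4 to 18 in the knockout step. For single genes, 1211 of 1390 values kept direction and side of the threshold, 97 lost a call, 19 gained one, 63 moved and 0 called values reversed. Causes were not tested. Signal over background could not be judged without detection calls, and groups of 2 or 3 arrays limit every comparison.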

Other observations

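The gap between Psme1 and Psme2 signals is given for each group. Signals of different probe sets cannot be compared as levels, so only shifts of the gap are described, without a test, on a pair chosen with results known. In control arrays Psme1 minus Psme2 was 2.67 to 2.995 in Ter119- CD71+, 1.98 to 2.14 in Ter119+ CD71+ and 1.19 to 1.22 in Ter119+ CD71med cells, with no overlap between stages. In knockout arrays it was 2.62 to 2.89 in Ter119- CD71+ cells and 3.53 and 2.68 in the Ter119+ CD71+ cells of embryos 10 and 11, both above every control array of that stage.

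Psmb9 minus Psmb6, the immunoproteasome subunit against the subunit it replaces, was -4.42 to -4.08 in control and -3.79 to -3.54 in knockout Ter119- CD71+ cells, and -4.17 to -3.99 in control and -3.52 and -2.81 in knockout Ter119+ CD71+ cells. The knockout arrays lay above the controls in both populations. Psmb9 differed by 0.34 and Psmb6 by -0.22 in Ter119- CD71+ cells, and by 0.38 and -0.56 in Ter119+ CD71+ cells. Psmb10 minus Psmb7 was lower in knockout Ter119- CD71+ arrays, at -4.28 to -3.98 against -3.96 to -3.58 in control. In Ter119+ CD71+ cells it was -5.10 and -4.86 in knockout and -5.43 to -5.07 in control arrays, which overlap. Psmb8 minus Psmb5 was -6.43 to -6.26 in knockout and -6.73 to -6.36 in control Ter119- CD71+ arrays, which overlap. In Ter119+ CD71+ cells it was -6.32 and -6.01 against -6.47 to -6.36, which do not. Psmb8 itself overlapped there, at 4.95 and 4.92 in knockout embryos 10 and 11 and 4.88 to 4.98 in controls. Psmb5 measured 10.97 and 11.24 in those embryos and 11.28 to 11.39 in controls. No gap was tested or set against other gene pairs.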
